A study of Mus musculus with 62 samples.

Results

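The comparison set mice that received the whole intervention of the study, voluntary wheel running with nicotinamide riboside (NR) and pterostilbene (PT), against mice that received none of these. It used the 16 of the 62 libraries of the series whose titles begin Training_NR_PT, 8 libraries called the full intervention here, or noTraining_noNR_noPT, 8 libraries called untreated. All came from polyadenylated RNA of quadriceps muscle, all mice were male, and each library was labelled as a separate animal with its own body weight change, day and time of termination. NR is a form of vitamin B3 that cells convert to NAD+, and the series title gives its route as intravenous, while the sample labels state its presence or absence. PT is a plant stilbenoid related to resveratrol. The 2 groups differ in all 3 treatments at once, so running alone (Training_noNR_noPT, 7 libraries) and both supplements without running (noTraining_NR_PT, 8 libraries) are given beside them where a gene is followed further. The labels and title give no strain, age, dose or length of treatment.

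The series title names NAD+, oxidative phosphorylation capacity and insulin sensitivity of muscle as the outcomes of interest. Oxidative phosphorylation is the process by which electrons from NADH and succinate pass along respiratory complexes in the inner mitochondrial membrane and drive ATP synthase. Most of its subunits are encoded in the nucleus, a few in mitochondrial DNA. Endurance exercise is known to raise the content of these complexes in muscle, to shift fibres from the fast glycolytic towards the oxidative type, and to increase capillary supply. NAD+ is the electron acceptor that feeds this chain and the substrate of sirtuins, and in muscle NR is phosphorylated to nicotinamide mononucleotide by NR kinases, of which Nmrk2 encodes the muscle form.

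The library totals ran from 9.19 to 27.22 M counts with the full intervention (median 14.1 M) and from 8.92 to 27.05 M in untreated mice (median 16.6 M), and the means of their log10 values did not differ in an exact two-sided permutation test (p = 0.612). RNA integrity numbers were 9.4 to 9.9 with the full intervention and 9.4 to 10 in untreated mice. Each group held 1 animal from each of 8 termination days, 4 days in each of 2 cohorts, and on every day the 2 animals were killed at opposite times, morning or noon, which balanced the times at 4 and 4. The 10 muscle-defining markers, among them Ckm, Acta1 and Ttn, summed to 132472 to 170611 CPM (TMM-scaled counts per M counted reads) with the full intervention and 140862 to 172115 CPM in untreated mice, so the tissue label held. Ribosomal-RNA-like reads were at most 0.217% with the full intervention and 1.17% in untreated mice, and leaving out the richest library of each group left the number of called genes at 0.

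Body weight separated the groups. Mice with the full intervention had changes of -5.2, -1.75 and -0.2 (lowest, median and highest of 8), against 2.1, 3.3 and 5.3 in untreated mice, in a unit that the labels do not state. Every mouse with the full intervention lost weight and every untreated mouse gained it, and the groups did not overlap. The means were -2.14 ± 1.95 with the full intervention and 3.38 ± 1.08 in untreated mice, a difference of -5.51 (exact two-sided permutation test, p = 0.000155, 0.00093 after Benjamini-Hochberg adjustment over 6 library and animal measures). The difference was -4.78 in cohort 1 and -6.25 in cohort 2, each with the smallest p that 4 animals against 4 allow (exact permutation, p = 0.0286). The weight change differed between the same 2 groups whose genes are compared below, and its part cannot be told apart from that of the treatments. Whether any gene followed weight within a group was not tested.

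Across all genes the differences were small, and in these 16 libraries alone no gene passed the threshold. edgeR's quasi-likelihood test called 0 of 13435 genes (0%) at an adjusted p below 0.05. Its lowest adjusted p was 0.0942, for Dusp6, while 1810 genes had an unadjusted p below 0.05, 889 higher (6.62%) and 921 lower (6.86%) with the full intervention. The same contrast fitted with all 62 libraries, whose 8 groups share 1 estimate of the spread, called 83 of 14549 genes, of which 52 rose (0.357%) and 31 fell (0.213%). Of these 83, the 16-library fit tested 81, and every one had the same sign and an unadjusted p below 0.05 there, with adjusted p between 0.0942 and 0.201. The 16 libraries are among the 62, so this agreement was largely built in and is not independent support. DESeq2 on the 16 libraries called 310 genes, 132 higher and 178 lower, and it shared 65 of the 83. It gave no adjusted p to 9637 of the 13435 genes, Aldh3a1 and Nqo1 among them. The sizes were modest, since 185 genes differed by over 1.5-fold and 18 by over 2-fold, and the called rises spanned log2 changes of 0.19 to 1.07 and the called falls -2.24 to -0.17.

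Single libraries decided the count in the 16-library fit. Without Training_NR_PT replicate 6 it called 93 genes, 68 higher and 25 lower, and without noTraining_noNR_noPT replicate 8 it called 60, 44 higher and 16 lower. Without any other single library it called 0. Below, a gene is said to have risen or fallen where it passed in the 62-library fit, and its adjusted p from both fits is given, because the 16-library fit is the direct comparison and called none. With termination day as a block in place of cohort, since each day held 1 animal of each group, the 16 libraries gave 4 calls, Got2, Cox7a1 and Pak1 higher and Ttll7 lower (edgeR adjusted p = 0.034 for each). Across genes, deviations of same-day animals from their group means correlated at only -0.129 to 0.134. The 62-library p-values treat animals killed in 1 session as independent. CPM and log2 changes (full intervention over untreated, ± SE) come from the 16-library fit unless stated.

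**Figure D1:**
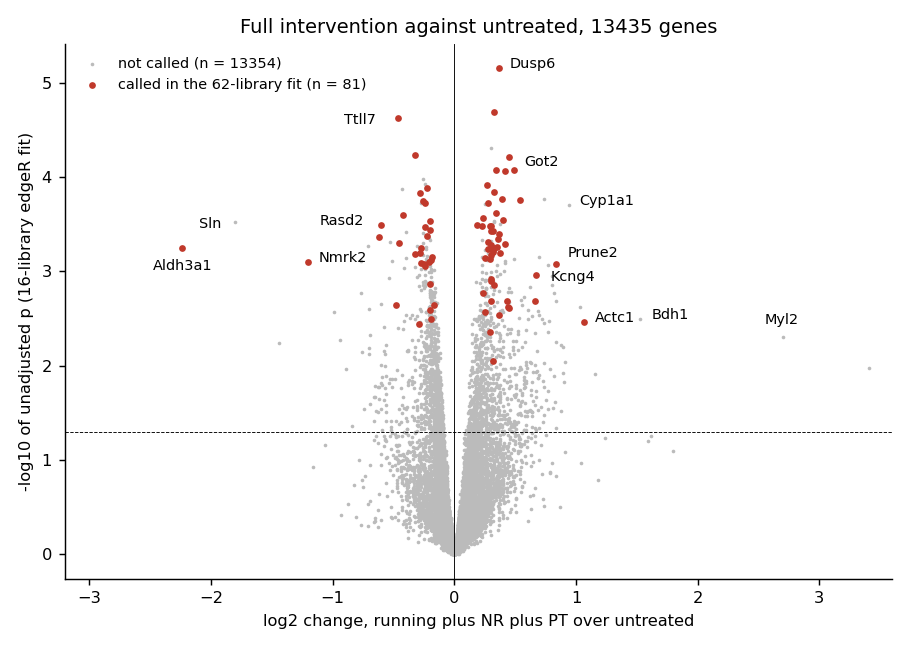
Log2 change of 13435 genes with the full intervention over untreated mice (x axis) against the -log10 of the unadjusted p in the 16-library fit (y axis, dashed line at 0.05). Red points are the 81 tested genes that the 62-library fit called; most lie within 1 log2 unit of 0, with Aldh3a1 and Nmrk2 the largest falls and Actc1 the largest rise among them.

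In 11 genes the 8 animals of each group did not overlap on the 16-library CPM scale. The 4 higher ones (0.0298% of genes tested) were Dusp6, Cyp1a1, Ctsb and Ptdss1, and the 7 lower ones (0.0521%) were Stk40, Ddx21, Myod1, Nhs, Man2a2, Pstpip2 and 5031439G07Rik. These genes are named because their values separated on that scale. With 62-library scaling Myod1 and Cyp1a1 overlapped, and the nearest pairs of Dusp6 and Ctsb were equal to the digits given. Dusp6 (chromosome 10, 99263231 to 99266799, mm10), which encodes a phosphatase that switches off ERK kinases, had 15.6, 17.6 and 19.7 CPM (lowest, median and highest) with the full intervention, against 11, 13.4 and 15.6 CPM in untreated mice, the nearest pair differing beyond the digits given. Dusp6 rose by a log2 change of 0.37 ± 0.06 (edgeR adjusted p = 0.0942 with 16 libraries and 0.0477 with 62). Ctsb, the lysosomal protease cathepsin B, rose by 0.19 ± 0.04, at 394, 416 and 445 CPM with the full intervention and 323, 371 and 390 CPM in untreated mice (edgeR adjusted p = 0.103 and 0.0416). Ptdss1, a phosphatidylserine synthase, was higher by 0.13 ± 0.05 (edgeR adjusted p = 0.233 and 0.193).

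Nuclear genes of oxidative phosphorylation were nearly all a little higher with the full intervention. Of 75 such subunits, all with enough counts to be tested, 74 had a log2 change above 0 and 69 had an unadjusted p below 0.05, all of them higher, beside 6.62% of all genes. Their median log2 change was 0.263, against 0.003 over all genes. The 16-library fit called 0 of the 75, and the 62-library fit called 11, all rises, beside 0.357% of all genes. DESeq2 called 47, all higher, out of its 132 higher calls over all 13435 genes, 9637 of which had no adjusted p. The only member below 0 was Atp5l, an ATP synthase subunit, at -0.01.

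Promoters of these genes were searched for the letters bound by NRF1, a transcription factor known for its action on respiratory chain genes, and they held them in a larger share of windows than promoters of all tested genes did. Windows of 300 bases, 250 before to 50 after the start, were read from RefSeq on GRCm38.p6 for 61 of the 75 genes, which gave 66 windows. The NRF1 letters searched, GCGCA followed by any base and then GCGC on either strand, stood in 17 of these 66 windows (25.8%), in 9.53% of the 12962 windows of tested genes and in 4.6% of all 32851. In the 24 windows of the TCA cycle list it stood in 2 (8.33%). TNAAGGTCA, on either strand, an element bound by oestrogen-related receptors, stood in 3 of the 66 (4.55%), in 0.756% of windows of tested genes, in 1.28% of all and in 0 of the 24 of the TCA cycle list. Among the 13 genes called as rising in the oxidative phosphorylation or TCA cycle lists that had a window, 1 held an NRF1 sequence and the same 1, Atp5g3, held the receptor element. Its window is shown with both in capitals, next to that of Cox7a1, the subunit with the largest change, which holds neither. The windows lie at chr2:73911277-73911576 on the minus strand and chr7:30183921-30184220 on the plus strand, and the matches in Atp5g3 are in reverse orientation.
Atp5g3: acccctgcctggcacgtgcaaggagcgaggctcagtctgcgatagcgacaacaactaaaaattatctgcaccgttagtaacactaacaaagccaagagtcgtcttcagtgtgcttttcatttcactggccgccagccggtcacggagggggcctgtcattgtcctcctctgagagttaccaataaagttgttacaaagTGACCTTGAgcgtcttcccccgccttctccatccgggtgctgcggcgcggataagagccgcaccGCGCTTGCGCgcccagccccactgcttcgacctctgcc
Cox7a1: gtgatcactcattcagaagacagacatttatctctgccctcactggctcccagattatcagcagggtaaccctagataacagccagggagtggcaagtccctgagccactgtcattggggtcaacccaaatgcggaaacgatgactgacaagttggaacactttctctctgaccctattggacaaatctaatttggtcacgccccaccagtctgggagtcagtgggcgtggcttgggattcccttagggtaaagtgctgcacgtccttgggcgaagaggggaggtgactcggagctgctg
In Atp5g3 the receptor element begins at base -52 from the start site and the NRF1 sequence at base 12. A match is a description of letters and was not tied to binding in these animals.

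Among the subunits, Cox7a1, the heart and muscle form of a cytochrome c oxidase subunit (chromosome 7, 30184144 to 30186078), had the largest change. It had 151, 207 and 264 CPM with the full intervention, against 116, 145 and 177 CPM in untreated mice. In all, 7 of the 8 animals with the full intervention exceeded the highest untreated animal, and the remaining one, replicate 6, lay within their range. The log2 change was 0.54 ± 0.11 (edgeR adjusted p = 0.103 and 0.0313). Atp5g3, one of the genes for the c-ring of ATP synthase (chromosome 2, 73908447 to 73911326), had 355, 506 and 674 CPM with the full intervention against 333, 387 and 435 CPM in untreated mice, a log2 change of 0.40 ± 0.09 (edgeR adjusted p = 0.103 and 0.0416). Other called subunits came from several complexes. In complex I, Ndufa10 rose by 0.30. In complex III, Uqcrfs1, the Rieske iron-sulfur protein, rose by 0.39, Uqcrq by 0.44 and Cyc1, cytochrome c1, by 0.33. In cytochrome c oxidase, Cox5a rose by 0.32, Cox6c by 0.37 and Cox7a2 by 0.30, and in ATP synthase Atp5b, the catalytic beta subunit, rose by 0.30 (all edgeR adjusted p = 0.103 to 0.139 with 16 libraries and 0.0416 to 0.0498 with 62).

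The 75 subunits together summed to 18560, 23505 and 29007 CPM with the full intervention (lowest, median and highest) and to 17567, 19776 and 22318 CPM in untreated mice. Replicate 6 of the full intervention was the lowest of its group, and the other 7, from 22353 CPM upwards, stood above every untreated animal. The members' difference was larger in cohort 1 than in cohort 2. Their median log2 change was 0.378 in cohort 1 and 0.167 in cohort 2. In cohort 1 alone 73 of 75 had an unadjusted p below 0.05, beside 10.9% of all genes in either direction. In cohort 2 alone 15 had one, beside 5.5%. A test of the difference between cohorts called 0 of 13435 genes with edgeR (592 at an unadjusted p below 0.05, lowest adjusted p = 0.941), so the cohorts are not shown to differ. Leaving out each library in turn gave 64 to 73 of the 75.

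**Figure D2:**
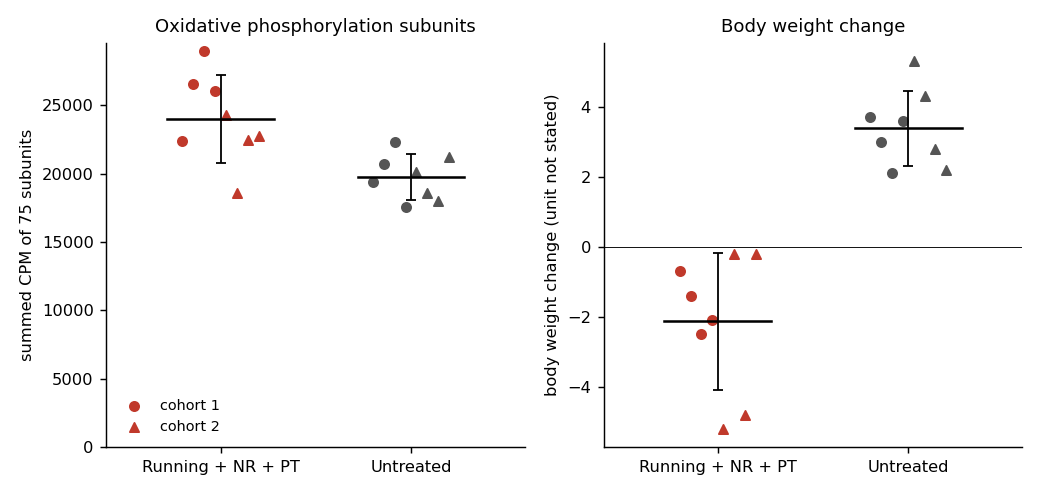
Summed CPM of 75 nuclear subunits of oxidative phosphorylation (left) and body weight change (right, unit not stated) per animal, with the full intervention left of untreated; circles are cohort 1, triangles cohort 2, bars the mean and whiskers the SD of 8 animals. The subunit sums of 7 of 8 animals with the full intervention lie above all 8 untreated sums, and the weight changes of the groups do not overlap.

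Of the other mitochondrial pathways, the TCA cycle list held calls. Of its 20 genes, with those of pyruvate oxidation, all were above 0 with a median log2 change of 0.233. At an unadjusted p below 0.05, 15 were higher, beside 6.62% of all genes, and 6 rose in the 62-library fit, beside 0.357%. These 6 were Mdh2, malate dehydrogenase, at 0.30, Pdhb and Pdha1, subunits of pyruvate dehydrogenase, at 0.28 and 0.30, Mpc2, a subunit of the mitochondrial pyruvate carrier, at 0.33, Fh1, fumarase, at 0.25, and Cs, citrate synthase, at 0.24. Cs, whose activity is a common measure of mitochondrial content, had 881, 1036 and 1324 CPM with the full intervention, against 815, 899 and 998 CPM in untreated mice (edgeR adjusted p = 0.121 and 0.0416). In cohort 2 alone 2 of the 20 had an unadjusted p below 0.05, beside 5.5% of all genes in either direction. In cohort 1 alone 15 had one, beside 10.9%. Of 32 genes of fatty acid uptake and oxidation 26 were above 0 and 6 below, and 7 were higher at an unadjusted p below 0.05, beside 6.62% of all genes, led by Acads, short-chain acyl-CoA dehydrogenase, at 0.34. None passed in either edgeR fit and DESeq2 called 3, out of its 132 higher calls over all genes. Of the 13 protein genes of mitochondrial DNA, 7 had enough counts to be tested, and all 7 were above 0. Of these, mt-Co1, at 0.28, and mt-Cytb, at 0.27, had an unadjusted p below 0.05, with none called. The untested ones were mt-Co2, mt-Co3, mt-Atp6, mt-Atp8, mt-Nd3 and mt-Nd4l, and whether their low counts reflect their expression was not tested. Mitochondrially encoded genes made up 12.7% ± 2.33 of counts with the full intervention and 10.9% ± 1.37 in untreated mice (SD, n = 8 each, exact two-sided permutation test, p = 0.0861).

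Several of the clearest rises were mitochondrial genes outside these lists. Got2, the mitochondrial aspartate aminotransferase that carries electrons from cytosolic NADH through the malate-aspartate shuttle (chromosome 8, 95864134 to 95888547), had 208, 312 and 425 CPM with the full intervention, against 182, 224 and 256 CPM in untreated mice. It was higher on all 8 days, and 7 of 8 animals with the full intervention exceeded all untreated ones. Got2 rose by 0.49 ± 0.10 (edgeR adjusted p = 0.103 and 0.0126). Tufm, the elongation factor of mitochondrial translation, rose by 0.33 ± 0.06, with 56.5, 68.8 and 77.8 CPM with the full intervention against 48.2, 54.5 and 58.8 CPM in untreated mice (edgeR adjusted p = 0.103 and 0.0126). Ckmt2, the mitochondrial creatine kinase of muscle (chromosome 13, 91853387 to 91876885), had 682, 1427 and 2069 CPM with the full intervention against 598, 868 and 1086 CPM in untreated mice, and rose by 0.66 ± 0.17 (edgeR adjusted p = 0.133 and 0.0472). The peroxiredoxins of mitochondria, Prdx3 and Prdx5, which remove peroxides, rose by 0.24 and 0.35 (edgeR adjusted p = 0.0472 and 0.049 with 62 libraries). Slc25a3, the mitochondrial phosphate carrier, rose by 0.30, Coq9, of coenzyme Q synthesis, by 0.28, Aldh4a1, of proline breakdown, by 0.27, Mtfp1, of mitochondrial fission, by 0.37 and Bola3, of iron-sulfur cluster assembly, by 0.34 (edgeR adjusted p = 0.0303 to 0.0477 with 62 libraries). Co-regulators of mitochondrial genes went in opposite directions. Ppargc1a, the coactivator PGC-1 alpha, was higher by 0.24 ± 0.10 at an unadjusted p of 0.0213, and Ppargc1b was lower by 0.27 ± 0.09 at an unadjusted p of 0.00969, neither called. Of 29 genes of the list of exercise regulators, 4 were higher and 4 lower at an unadjusted p below 0.05, beside 6.62% and 6.86% of all genes. The higher ones were Smtnl1, a smoothelin-like muscle protein, at 0.88, Il15, a cytokine of muscle, at 0.51, Ppargc1a, and Vegfb, a vascular growth factor, at 0.22. The lower ones were Nr4a3, an orphan nuclear receptor, at -0.84, Ppargc1b, Prkab2, an AMPK subunit, at -0.20, and Nrf1, the factor whose letters were searched above, at -0.17 (edgeR adjusted p = 0.381 with 62 libraries). None of the 29 was called.

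Genes of glucose use showed no such common direction. Of 20 genes of glycolysis and glycogen, 3 were higher and 2 lower at an unadjusted p below 0.05, beside 6.62% and 6.86% of all genes. The median log2 change was 0.0276. Gyg, glycogenin, was lower by 0.20 and Gys1, glycogen synthase, higher by 0.16, neither called with edgeR. Fbp2, the muscle fructose-1,6-bisphosphatase, fell, at 32.6, 35.8 and 44.8 CPM with the full intervention, against 36.4, 49.5 and 71.6 CPM in untreated mice. Its log2 change was -0.48 ± 0.13, lower on all 8 days (edgeR adjusted p = 0.135 and 0.0303). Bdh1, the mitochondrial enzyme that oxidises the ketone body beta-hydroxybutyrate, was higher by 1.53 ± 0.42 but spread widely, with 3.29, 17.2 and 39.4 CPM with the full intervention against 1.77, 5.69 and 8.51 CPM in untreated mice (edgeR adjusted p = 0.146 and 0.125). Of 26 genes of insulin signalling and glucose uptake, 10 were above 0 and 16 below, with a median log2 change of -0.0516. At an unadjusted p below 0.05, 2 were higher and 6 lower, beside 6.62% and 6.86% of all genes, and none was called. Slc2a4, the insulin-regulated glucose transporter GLUT4, differed by 0.02 ± 0.05 and Hk2, hexokinase 2, by 0.04 ± 0.09. Tbc1d4, a regulator of GLUT4 transport, was lower by 0.18 at an unadjusted p of 0.0115.

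In NAD metabolism 1 gene stood out. Nmrk2, which encodes the muscle NR kinase (chromosome 10, 81198170 to 81202051), had 26.2, 40.8 and 76.6 CPM with the full intervention, against 55.5, 109 and 150 CPM in untreated mice. The groups overlapped, but 6 of the 8 animals with the full intervention lay below the lowest untreated one, and the level was lower on 7 of 8 days. Nmrk2 averaged 45.8 ± 18.4 CPM with the full intervention and 105 ± 32.5 CPM in untreated mice (SD, n = 8 each). It fell by 1.20 ± 0.27 on the log2 scale (edgeR adjusted p = 0.103 with 16 libraries and 0.0416 with 62), by 0.95 in cohort 1 and 1.40 in cohort 2. Atcayos, a gene on the opposite strand that spans Nmrk2 (chromosome 10, 81194609 to 81209161), was higher by 0.23 ± 0.06, with 88.5, 110 and 122 CPM with the full intervention against 84.3, 92.3 and 101 CPM in untreated mice (edgeR adjusted p = 0.109 and 0.105). Whether the counting used strand is not stated, so reads where both genes lie could have been split between them and both values are uncertain. Of the 27 NAD genes tested of 32, 1 was higher and 2 were lower at an unadjusted p below 0.05, beside 6.62% and 6.86% of all genes. Nmrk2 was the only NAD gene called, a fall in the 62-library fit, beside falls in 0.213% of all genes. Sirt3, the mitochondrial sirtuin, was higher by 0.30 ± 0.09 and Aox1, which oxidises breakdown products of nicotinamide, lower by 0.19 ± 0.07, neither called. Nampt, the salvage enzyme that makes nicotinamide mononucleotide from nicotinamide, differed by -0.10 ± 0.06. Nmrk1, the widespread NR kinase, differed by -0.01 ± 0.11, Sirt1 by -0.10 ± 0.09 and Nnmt, which methylates nicotinamide, by -0.05 ± 0.31.

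Slow fibre genes were higher in some animals of the full intervention. Of 13 such genes tested of 15, 11 were above 0, with a median log2 change of 0.803. At an unadjusted p below 0.05, 3 were higher, Myh7, Myl2 and Mb, beside 6.62% of all genes. None passed in either edgeR fit. Mb, myoglobin, the oxygen store of oxidative fibres, had 497, 1638 and 2247 CPM with the full intervention against 351, 764 and 1230 CPM in untreated mice, a log2 change of 0.91 ± 0.30 (edgeR adjusted p = 0.203 and 0.0963). Myh7, the slow myosin heavy chain, had 0.317, 2.54 and 57.8 CPM with the full intervention against 0, 0.475 and 1.45 CPM in untreated mice. Replicates 4 and 5 of the full intervention, at 29.5 and 57.8 CPM, carried most of that difference, while the other 6 reached 3.41 CPM, and raw counts ran from 6 to 1048 with the full intervention and from 0 to 30 in untreated mice. Myl2, the slow regulatory light chain, was highest in the same 2 animals, at 18.6 and 21.8 CPM. The summed level of the slow fibre list was 623 to 2523 CPM with the full intervention and 461 to 1485 CPM in untreated mice, with replicate 6 the lowest of its group, as for the respiratory subunits. The part of fibre composition in the mitochondrial differences was not tested, and in bulk tissue more fibres or cells of a type and more RNA in each cannot be told apart. Of 16 fast fibre genes 6 were above and 10 below 0, with a median log2 change of -0.0273. At an unadjusted p below 0.05, 1 was higher and 2 were lower, beside 6.62% and 6.86% of all genes, none called. Myh1, the myosin of the intermediate IIx fibre, was higher by 0.83 ± 0.32 at an unadjusted p of 0.0243, with 1645, 5697 and 8991 CPM with the full intervention against 1162, 3136 and 4396 CPM in untreated mice. Myh4, the fastest myosin, was lower by 0.15 ± 0.07 at an unadjusted p of 0.0488, and Actn3, the fast Z-disc actinin, lower by 0.19 ± 0.06 at an unadjusted p of 0.00921.

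One gene of membrane excitation and one of the sarcomere rose. Kcng4, a modulatory subunit of voltage-gated potassium channels (chromosome 8, 119623854 to 119635680), had 55.9, 87 and 115 CPM with the full intervention, against 34, 53.6 and 75.9 CPM in untreated mice. Here too 7 of the 8 animals, all but replicate 6, exceeded every untreated animal, and Kcng4 rose by 0.67 ± 0.16 (edgeR adjusted p = 0.113 and 0.0074, the lowest in the 62-library fit). Actc1, the alpha-actin of heart and of developing muscle, had 174, 264 and 692 CPM with the full intervention against 101, 130 and 298 CPM in untreated mice, and rose by 1.07 ± 0.29 (edgeR adjusted p = 0.147 and 0.0416). The groups overlapped, and replicate 7 of the full intervention stood far above the rest. In the list of regeneration and denervation, which holds Actc1, 1 of 19 tested genes was higher and 4 were lower at an unadjusted p below 0.05, beside 6.62% and 6.86% of all genes. Myod1, the myogenic transcription factor, was lower, at 7.35, 10.1 and 11.2 CPM with the full intervention and 11.3, 12.8 and 15.9 CPM in untreated mice. Its log2 change was -0.43 ± 0.09 (edgeR adjusted p = 0.103 and 0.0774). These values did not overlap, but with 62-library scaling the highest with the full intervention was 11.2 CPM and the lowest untreated 11.1 CPM. Myf6, another of that family, was lower by 0.26 ± 0.07 at an unadjusted p of 0.00138, and Musk, a receptor of the neuromuscular junction, by 0.33. Cdkn1a, the cell cycle inhibitor p21, was lower by 0.77 ± 0.20, with 6.38, 8.23 and 13 CPM with the full intervention against 9.86, 15 and 21.2 CPM in untreated mice (edgeR adjusted p = 0.121 and 0.091). Its log2 change was -1.24 ± 0.16 in cohort 1 alone and -0.29 ± 0.15 in cohort 2 alone. In the list of atrophy and the myostatin axis 3 of 20 were lower at an unadjusted p below 0.05, beside 6.86% of all genes, and none higher. These were Mstn, myostatin, by 0.35, Trim63, the ubiquitin ligase MuRF1, by 0.25 and Bnip3, a mitophagy receptor, by 0.17.

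Of 13 calcium handling genes tested, 11 were below 0, with a median log2 change of -0.0805. At an unadjusted p below 0.05, 5 were lower, beside 6.86% of all genes, and none was called in either edgeR fit. Sln, sarcolipin, which uncouples the sarcoplasmic calcium pump (chromosome 9, 53850164 to 53854560), had 0.363, 0.832 and 1.45 CPM with the full intervention, against 0.454, 3.15 and 5.72 CPM in untreated mice, and was lower on all 8 days. The change was -1.80 ± 0.39 on the log2 scale (edgeR adjusted p = 0.103 and 0.0584). Its raw counts were low, 4 to 20 per library with the full intervention and 4 to 148 in untreated mice. The other 4, Trdn, Asph, Ryr1 and Cacna1s, all parts of the triad where the T-tubule meets the calcium store, were lower by 0.12 to 0.16. DESeq2 called 1 member of the list, out of its 178 lower calls over all genes.

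Targets of the aryl hydrocarbon receptor and of the antioxidant factor NRF2 split. Aldh3a1, an aldehyde dehydrogenase (chromosome 11, 61207537 to 61218421), had 0.07, 0.371 and 0.79 CPM with the full intervention, against 0.451, 1.79 and 4.49 CPM in untreated mice, with raw counts of 1 to 14 with the full intervention and 6 to 87 in untreated mice. It fell by 2.24 ± 0.51 on the log2 scale (edgeR adjusted p = 0.103 and 0.0198). Cyp1a1 is a xenobiotic-metabolising cytochrome P450 and the classic target of the same receptor (chromosome 9, 57687928 to 57703821). It had 0.98, 1.26 and 1.9 CPM with the full intervention against 0.34, 0.788 and 0.978 CPM in untreated mice, without overlap. With 62-library scaling the groups overlapped, at 0.9656 CPM in replicate 6 of the full intervention and 0.9658 CPM in untreated replicate 3. Its log2 change was 0.94 ± 0.21 (edgeR adjusted p = 0.103 and 0.0698), from raw counts of 14 to 34 with the full intervention and 3 to 26 in untreated mice. Nqo1, a quinone reductase, fell by 0.32 ± 0.08 and Me1, the cytosolic malic enzyme that makes NADPH, fell by 0.24 ± 0.05 (edgeR adjusted p = 0.0472 and 0.0423 with 62 libraries, 0.103 with 16). Of 24 genes of this list tested, 1 was higher and 7 were lower at an unadjusted p below 0.05, beside 6.62% and 6.86% of all genes.

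**Figure D3:**
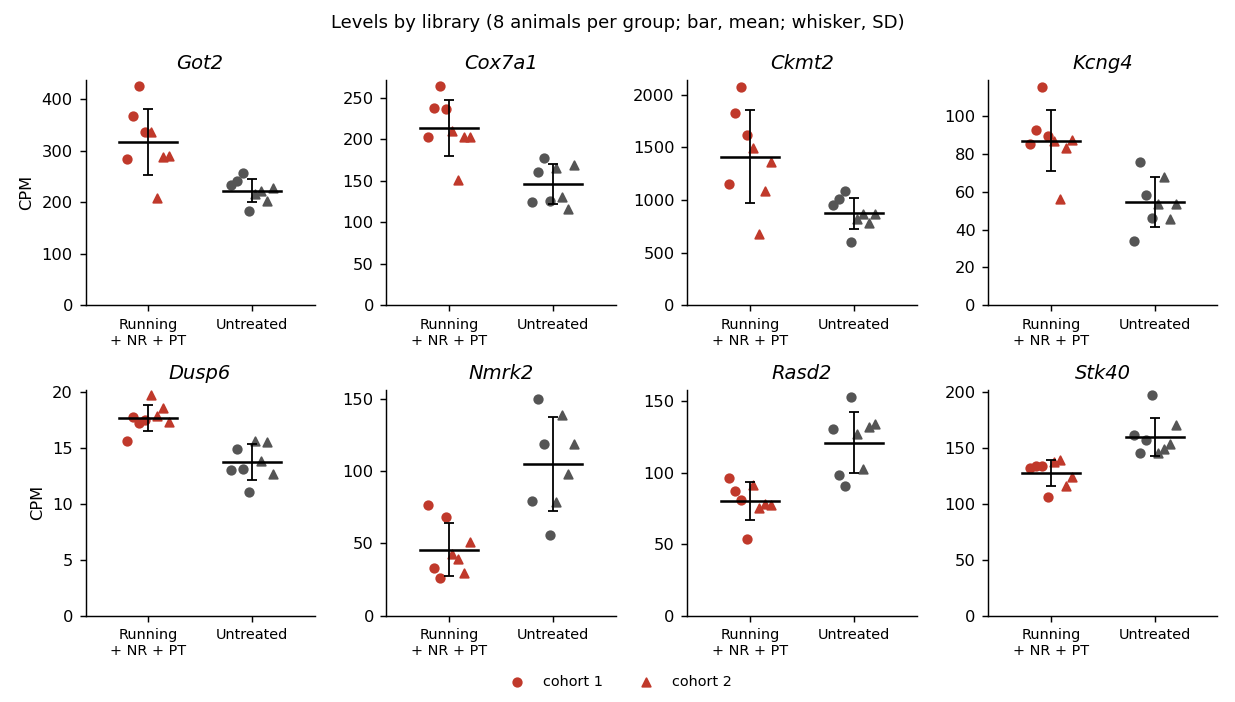
CPM of 8 genes in each animal, with the full intervention left of untreated; circles are cohort 1, triangles cohort 2, bars the mean and whiskers the SD of 8 animals. Got2, Cox7a1, Ckmt2, Kcng4 and Dusp6 are higher with the full intervention and Nmrk2, Rasd2 and Stk40 lower, and replicate 6 of the full intervention is the lowest of its group in the first 4.

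Other genes fell one by one, named because the 62-library fit called them. Stk40, a serine/threonine kinase family member (chromosome 4, 126103957 to 126141028), had 106, 133 and 139 CPM with the full intervention, against 145, 155 and 197 CPM in untreated mice, with no overlap, and fell by 0.32 ± 0.06 on the log2 scale (edgeR adjusted p = 0.103 and 0.0126). Rasd2, a Ras-like GTPase (chromosome 8, 75213944 to 75224113), had 53.5, 79.7 and 96.5 CPM with the full intervention against 91.1, 129 and 153 CPM in untreated mice. It was lower on all 8 days and fell by 0.60 ± 0.13 (edgeR adjusted p = 0.103 and 0.0126). Stat5b and Jak1, a transcription factor and a kinase of cytokine and growth hormone signalling, fell by 0.26 and 0.17 (edgeR adjusted p = 0.0388 for both with 62 libraries, 0.103 and 0.135 with 16). Mapk9, the kinase JNK2, fell by 0.19, Rps6ka3, a kinase downstream of ERK, by 0.25 and Eif4b, a translation initiation factor, by 0.24 (edgeR adjusted p = 0.0416 to 0.0472 with 62 libraries). Ttll7, which adds glutamate chains to tubulin, had medians of 271 CPM with the full intervention and 398 CPM in untreated mice and fell by 0.46 ± 0.08 (edgeR adjusted p = 0.103 and 0.0303). Ddx21, a helicase of ribosome biogenesis, fell by 0.22, and Fbxo40, a muscle ubiquitin ligase subunit, also by 0.22 (edgeR adjusted p = 0.0477 and 0.0364 with 62 libraries). Rises outside metabolism included Pak1, a kinase that remodels actin, at 0.42 ± 0.08, Efnb2, ephrin-B2, an arterial endothelial ligand, at 0.43 ± 0.12 and Iqsec2, an exchange factor for ARF GTPases, at 0.45 ± 0.09 (edgeR adjusted p = 0.0198, 0.0364 and 0.0303 with 62 libraries). Of 18 clock genes 16 were below 0, with a median log2 change of -0.123, and 2, Rora and Cry1, were lower at an unadjusted p below 0.05, beside 6.86% of all genes. No clock, chaperone, interferon, p53 or glucocorticoid-responsive gene was called in either edgeR fit.

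Markers of other cells were set beside these results. Of 20 endothelial markers 18 were above 0, with a median log2 change of 0.133, and 4 were higher at an unadjusted p below 0.05, beside 6.62% of all genes. These were Aplnr, the apelin receptor, Cdh5, VE-cadherin, Sox18 and Tie1. Cdh5 had 67.4, 89.4 and 117 CPM with the full intervention, against 66.2, 75 and 80.1 CPM in untreated mice, a log2 change of 0.31 ± 0.10 (edgeR adjusted p = 0.191 and 0.0712). The summed endothelial markers were 491 to 781 CPM with the full intervention and 486 to 581 CPM in untreated mice. Of 39 extracellular matrix genes 35 were above 0, with a median of 0.228, and 4 were higher at an unadjusted p below 0.05, Lamb1, Bgn, Lum and Col8a1, again beside 6.62%. That median was 0.014 in cohort 1 and 0.421 in cohort 2, and the 15 fibroblast markers gave -0.0113 and 0.475. Over both cohorts all 15 fibroblast markers and 14 of 15 macrophage and neutrophil markers tested were above 0. In each list 1 was higher at an unadjusted p below 0.05, beside 6.62% of all genes. Fibroblast markers summed to 2368 to 4583 CPM with the full intervention and 1639 to 3737 CPM in untreated mice, and macrophage and neutrophil markers to 200 to 458 CPM with the full intervention and 154 to 341 CPM in untreated mice. Adipocyte markers summed to 688 to 1880 CPM with the full intervention and 969 to 1899 CPM in untreated mice, with Ucp1, of brown fat, at 0 in all 16 libraries. Summed levels of the remaining lists overlapped too. With the full intervention they were 2.7 to 6.23 CPM for lymphocytes, 41.6 to 121 CPM for erythrocytes, 56.1 to 79.9 CPM for Schwann cells and nerve, and 168 to 387 CPM for tendon and cartilage. In untreated mice they were 2.75 to 5.46 CPM for lymphocytes, 49.2 to 146 CPM for erythrocytes, 70.2 to 96.5 CPM for Schwann cells and nerve, and 53.3 to 296 CPM for tendon and cartilage. Pericyte and smooth muscle markers summed to 3380 to 4183 CPM with the full intervention and 3287 to 4156 CPM in untreated mice. No marker of any of these cell types was called in either edgeR fit, and the part of cell composition in the gene results was not tested.

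**Figure D4:**
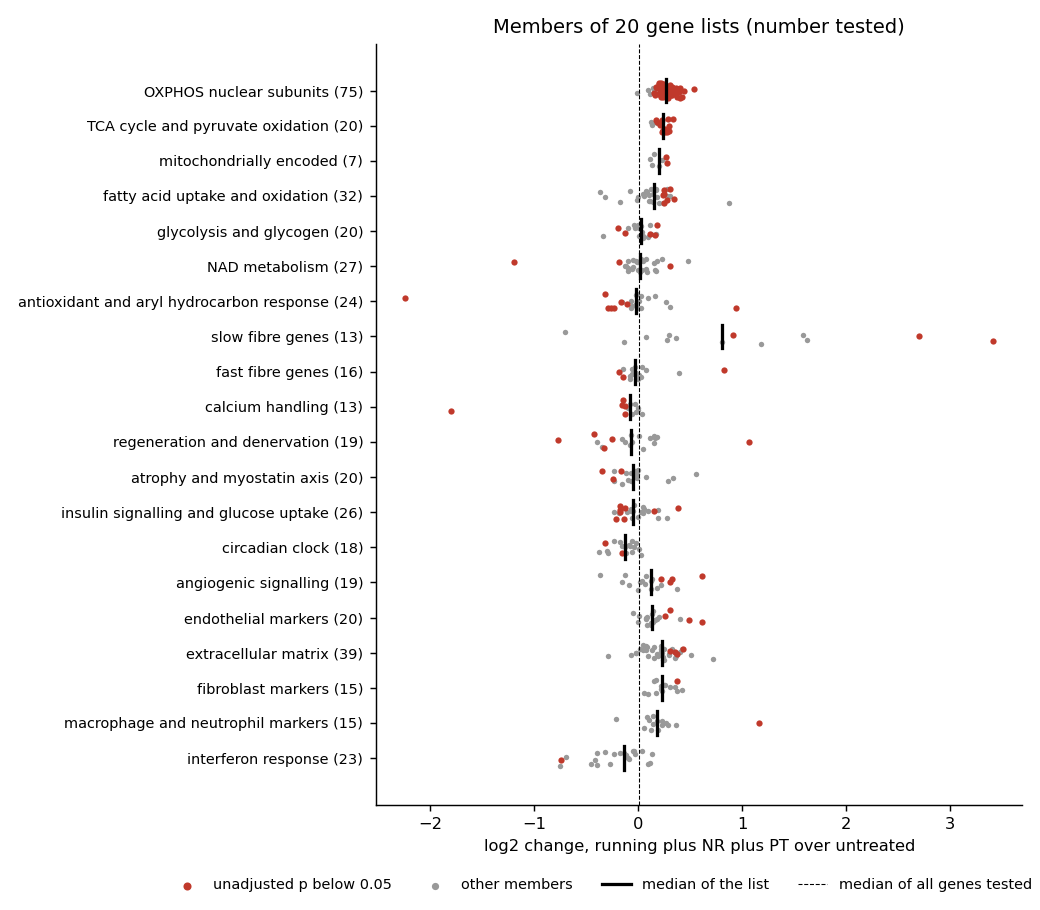
Log2 change of each tested member of 20 gene lists with the full intervention over untreated mice; red points have an unadjusted p below 0.05 in the 16-library fit, grey points do not, and the black bar is the list median. The oxidative phosphorylation and TCA cycle members lie almost wholly right of the median of all genes. All 7 mitochondrially encoded genes, all 15 fibroblast markers and 14 of 15 macrophage and neutrophil markers lie above 0 too, and the remaining lists straddle the median.

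The full intervention was also set against its component groups, in 62-library fits and on the 62-library CPM scale. Against running alone it called 0 of 14549 genes with edgeR and 0 with DESeq2 (479 and 507 at an unadjusted p below 0.05). On simulated counts that edgeR test found 76% of genes changed 1.5-fold and 92% of those changed 2-fold. It found 40% at the next smaller size simulated and 2% at the smallest, so the 0 calls say little about small differences. Against both supplements alone it called 247 genes, 120 higher (0.825%) and 127 lower (0.873%). A test of whether the full intervention departed from the sum of running alone and supplements alone on the log2 scale called 0 genes with edgeR and 0 with DESeq2 (450 and 486 at an unadjusted p below 0.05). Running alone against untreated called 0 genes (990 at an unadjusted p below 0.05, and 0 with DESeq2) and supplements alone called 1, Atcayos, with 6 by DESeq2. These contrasts share their untreated libraries with the full intervention, so their values are given side by side only. Against untreated mice, the median log2 change of the 75 respiratory subunits was 0.161 for running alone and 0.101 for supplements alone in the 62-library fit. The median of 0.263 given above for the full intervention comes from the 16-library fit. The fits differ, so the 3 medians cannot be added or subtracted. For the TCA cycle genes the medians were 0.145 for running alone and 0.0335 for supplements alone with 62 libraries. The full intervention gave 0.233 with 16 libraries.

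Genes called against supplements alone included several already described. The 5 with the smallest p were Cdkn1a at -1.40 ± 0.24, Sln at -2.74 ± 0.48, Stat5b at -0.32 ± 0.06, Pde10a, a cyclic nucleotide phosphodiesterase, at 0.70 ± 0.13 and Rai14, an actin-binding protein gene, at 0.53 ± 0.10 (edgeR adjusted p = 0.00424 to 0.0049). Got2 averaged 317 ± 66.1 CPM with the full intervention, 272 ± 48.1 with running alone, 226 ± 28.7 with supplements alone and 221 ± 22.6 in untreated mice (SD). It rose against supplements alone by 0.48 ± 0.10 (edgeR adjusted p = 0.00663) and was higher than with running alone by 0.22 ± 0.10 at an unadjusted p of 0.0387. Kcng4 followed the same order, with 86.7 ± 16.3 CPM with the full intervention, 67.6 ± 9.47 with running alone, 55.9 ± 6.88 with supplements alone and 54 ± 13.3 in untreated mice, and rose against supplements alone by 0.62 ± 0.12 (edgeR adjusted p = 0.0049). Of the endothelial markers, 3 of 20 rose against supplements alone, among them Cdh5 by 0.34 ± 0.09 (edgeR adjusted p = 0.0274), beside 0.825% of all genes.

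Nmrk2 did not follow that order. It averaged 45.7 ± 18.4 CPM with the full intervention, 71.9 ± 37.8 with running alone, 40 ± 18.6 with supplements alone and 104 ± 32.5 in untreated mice (SD). Against untreated mice its log2 change was -0.53 ± 0.28 for running alone (edgeR adjusted p = 0.739) and -1.41 ± 0.28 for supplements alone (edgeR adjusted p = 0.0575). The full intervention differed from running alone by -0.65 ± 0.29 at an unadjusted p of 0.0293 and from supplements alone by 0.22 ± 0.28 at an unadjusted p of 0.427, none called. Its departure from the sum of both was 0.75 ± 0.40 at an unadjusted p of 0.0653, also not called. Atcayos, its antisense neighbour, averaged 109 ± 10.4 CPM with the full intervention, 101 ± 9.3 with running alone, 126 ± 17.3 with supplements alone and 92 ± 6.7 in untreated mice. Its log2 change with supplements alone, 0.45 ± 0.07, was the single call of that contrast (edgeR adjusted p = 0.0018), and its departure from the sum was -0.33 ± 0.11, at an unadjusted p of 0.00258 and not called. The mean of Cyp1a1 was above that of untreated mice in all 3 treated groups, at 1.35 ± 0.303 CPM with the full intervention, 1.39 ± 0.425 with running alone and 1.21 ± 0.519 with supplements alone, against 0.678 ± 0.236 in untreated mice. Sln and Cdkn1a had lower means in both running groups, and higher means with supplements alone, than in untreated mice. Sln averaged 0.878 ± 0.365 CPM with the full intervention, 0.803 ± 0.38 with running alone, 5.61 ± 1.95 with supplements alone and 3.1 ± 1.92 in untreated mice. Cdkn1a averaged 8.71 ± 2.07 CPM with the full intervention, 10.7 ± 2 with running alone, 22.7 ± 5.8 with supplements alone and 14.9 ± 4.55 in untreated mice. Aldh3a1 likewise was low where mice ran, with a log2 change of -1.89 ± 0.44 for running alone at an unadjusted p of 8.65e-05 and -0.17 ± 0.37 for supplements alone, neither called.

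**Figure D5:**
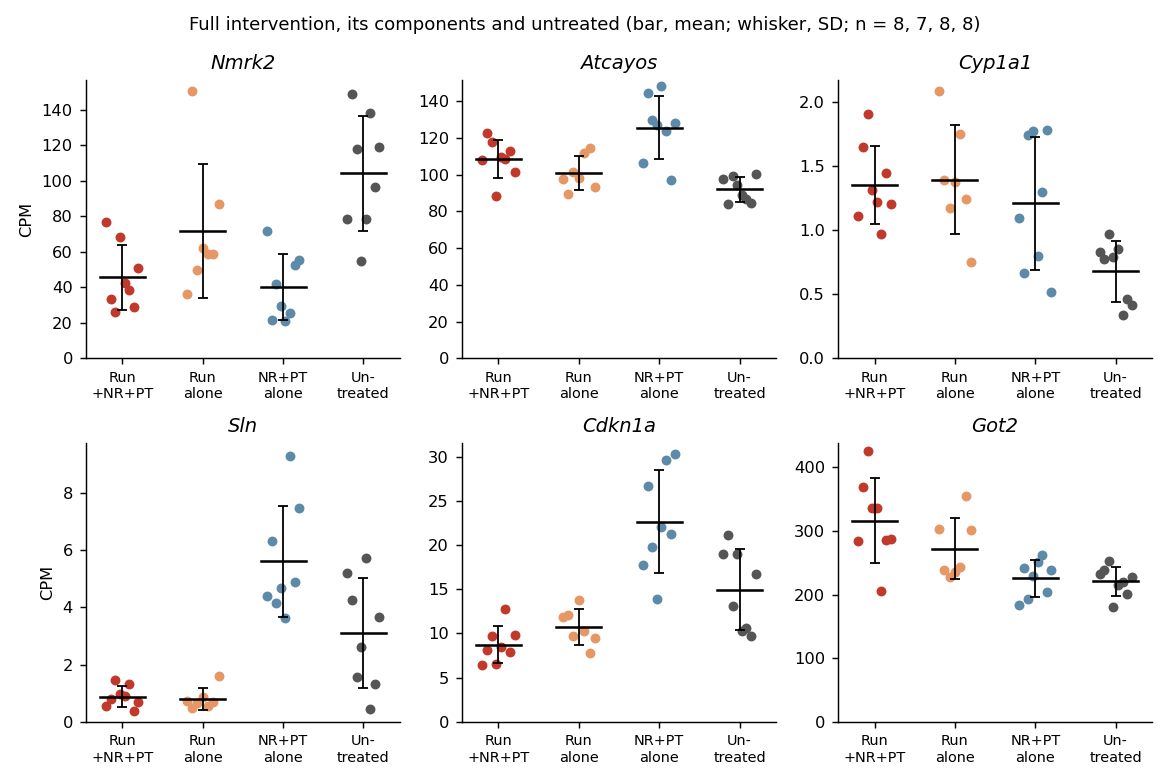
CPM (62-library scaling) of 6 genes in each animal with the full intervention, running alone, supplements alone and no treatment, from left to right; bars are means and whiskers SD of 8, 7, 8 and 8 animals. Sln and Cdkn1a are low in both running groups, Nmrk2 is lowest with supplements alone and with the full intervention, and Got2 is highest with the full intervention.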

How the data were processed

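RNA was extracted with TRIzol and columns and sequenced as stranded poly-A libraries in 52-base read pairs, per the labels' protocols. The deposited values are raw counts per gene, made by the authors with STAR 2.7.3a and featureCounts 2.0.0 on mm10, per the submitters' processing notes. The annotation release and the strand setting are not named there. Of 55487 gene IDs, 55394 (99.8%) matched GENCODE M21. Samples were grouped by title.

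Genes were kept by edgeR's filterByExpr (minimum count 10, minimum total 15), scaled by TMM and tested in edgeR 4.0.16 (R 4.3.3) with the quasi-likelihood test, Benjamini-Hochberg adjustment and a threshold of 0.05. The 16-library model held group, cohort and time of day (12 residual degrees of freedom), and the 62-library model 8 groups, day and time (46). DESeq2 1.42.0, other scalings and filters, cohorts, blocks and left-out libraries were alternatives. SE is the log2 change divided by the square root of F. Every mouse gave 1 library, and the labels do not say which mice shared a cage or litter.

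The gene lists and the choice of comparison were made with earlier results of these data known. By rule, the text names called genes, up to 4 members with the smallest p in a list, and 20 set genes. Since the 16-library fit called none, genes called in the 62-library fit, genes whose groups did not overlap and a few further list members were named after their values were seen. On simulated counts for 13334 genes, the 16-library test found 0% of genes changed 1.1-fold, 26% at 1.25-fold, 68% at 1.5-fold and 86% at 2-fold, with 8 false calls.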

Additional observations from a re-analysis of the deposited data

Results flagged for a closer look

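Among 260 sets of 8 values examined, 14 had 1 animal whose gap to its nearest neighbour exceeded Dixon's 95% critical share of the group's range. Chance gives about 1 in 20, which is near the share seen, so the values below are listed as descriptions only. With the full intervention, replicate 7 was far above the rest in Actc1 (692 CPM) and in the matrix genes Lamb1 (62.6 CPM) and Col8a1 (10.1 CPM). Replicate 6, the animal with the lowest respiratory subunit sum, stood out at 3.36 CPM of Nr4a3, an exercise-responsive nuclear receptor. Replicate 3 was highest in Pak1 (48 CPM) and lowest in Pstpip2 (60.7 CPM) and Rora (102 CPM), replicate 2 highest in Bdh1 (39.4 CPM) and replicate 4 highest in Tnmd, a tendon marker (11.8 CPM). In untreated mice, replicate 4 was highest in Stat5b (399 CPM) and 5031439G07Rik (306 CPM), and replicate 2 in Sirt3 (18.5 CPM). Ribosomal-RNA-like reads stood out in replicate 5 of the full intervention, at 0.217%, and in untreated replicate 7, at 1.17%.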

How the results depend on the processing

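In the 16 libraries the number of called genes was 0, and it was also 0 with RLE scaling, a stricter filter, no covariates, RNA integrity as a covariate, cohort 1 alone or without both libraries richest in ribosomal-like reads. It was 310 with DESeq2, 679 without a filter on low counts (476 higher and 203 lower, 93 of them under 10 counts per library on average), 83 in the 62-library fit, 4 with day as a block, 1 in cohort 2 alone, and 0 to 93 when each library was left out in turn. With the replicate number as a block (replicate block) it was 3. The numbers do not pair the samples, since same-numbered animals correlated at -0.14 to 0.118 and no animal correlated best with its own number. Animals of the same termination day correlated at -0.129 to 0.134. No animal with the full intervention correlated best with the untreated animal of its day. Of the 83, DESeq2 shared 65, the fit without full intervention replicate 6 shared 44 and the fit without untreated replicate 8 shared 30. Against supplements alone the 247 calls became 470 with DESeq2 and 86 without a filter, and supplements alone against untreated gave 6 with DESeq2 and 2 with cohort and time in place of day. The RNA integrity difference was 0.05 in cohort 1 alone and -0.32 in cohort 2 alone (9.58 ± 0.21 with the full intervention and 9.90 ± 0.08 in untreated mice, exact permutation p = 0.0571). The log10 total differed by 0.00 in cohort 2 alone. Over both cohorts these differences were -0.14 and -0.04. Among 221 named genes and 28 settings, 9 genes changed sign, all with log2 changes of at most 0.37 in size. In cohort 1 alone Fbn1 gave -0.07, Tnmd -0.05, Lyz2 -0.03 and Nmrk1 0.01. In cohort 2 alone Hk2 gave -0.10, Fkbp5 0.01, Cd3e -0.03, Nnmt 0.36 and Vegfa 0.03. Vegfa gave 0.01 with either block and 0.00 with 62 libraries. Leaving out 1 library gave -0.01 to 0.10 for Hk2, -0.06 to 0.06 for Vegfa, -0.22 to 0.17 for Nnmt and -0.07 to 0.05 for Nmrk1. The causes were not tested.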

Other observations

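Of 23 interferon response genes tested, 19 were below 0 against untreated mice, with a median log2 change of -0.137 and 1 member, Oas1a, an antiviral synthetase, lower at an unadjusted p below 0.05, beside 6.86% of all genes (edgeR adjusted p = 0.31 and 0.353 with 16 and 62 libraries). Against supplements alone their median was 0.435 and 1 member was called, a rise, beside 0.825% of all genes. For supplements alone against untreated mice the median was -0.562. These contrasts share libraries, and the difference between their medians was not tested. The summed level was 123 to 170 CPM with the full intervention and 116 to 363 CPM in untreated mice.

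Stress, iron and fat synthesis genes showed few differences. Over all genes, 6.62% were higher and 6.86% lower at an unadjusted p below 0.05. Of 20 chaperones, Hspa8 and Hspa5, of the cytosol and the endoplasmic reticulum, were lower by 0.19 and 0.20 at an unadjusted p below 0.05. Hspa5 gave -0.37 ± 0.07 in cohort 1 alone and -0.01 ± 0.09 in cohort 2 alone. In the integrated stress response, Atf4, its transcription factor, was lower by 0.14 and Lonp1, a mitochondrial protease, higher by 0.12. Slc40a1, the iron exporter ferroportin, was lower by 0.28 at an unadjusted p of 0.0025 in edgeR, the only one of 10 iron genes below 0.05. Of 16 lipogenesis genes, 3 were lower at that level, and Me1 was the 1 called with 62 libraries. Among genes called with 62 libraries and not yet described, S100a1, a calcium-binding protein of muscle, rose by 0.28, Phyh, which starts phytanic acid breakdown, by 0.45, Aldh2, the mitochondrial aldehyde dehydrogenase, by 0.32 and Ndufab1, the mitochondrial acyl carrier protein, by 0.32. Pdlim3, a Z-disc protein, fell by 0.29, Pla2g7, which breaks down platelet-activating factor, by 0.42 and Celf1, an RNA-binding protein, by 0.24 (edgeR adjusted p = 0.0388 to 0.0477 with 62 libraries for these 7).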
